A study of Mus musculus with 27 samples.

Results

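Egr1, Egr2, Egr3, Nr4a1, Nr4a2, Nr4a3, Fos, Fosb, Jun and Junb, 10 immediate early transcription factor genes, were followed in mouse bone marrow cultured with Flt3 ligand (Flt3-L), with and without cyclosporin A (CsA). They were 10 of the 19935 genes measured on the arrays and were chosen by name. Each had exactly 1 probe set that listed no other gene, so all 10 were measured and none was removed by a filter.

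Bone marrow cells came from femurs and tibiae of C57BL/6 mice aged 8 to 12 weeks, with no allele named beside the strain. The 9 groups held 3 arrays each: unstimulated cells, cells kept for 12 h, 24 h, 48 h or 11 days in medium with Flt3-L, and cells kept for the same times with Flt3-L and CsA. Flt3-L, a cytokine that drives marrow progenitors toward dendritic cells, came from transfected B16 tumour cells and was used at about 200 ng/ml. CsA, an inhibitor of the phosphatase calcineurin, was given at 2 µg/ml, starting 30 min before Flt3-L, and stayed in the medium. The labels do not say whether unstimulated cells were fresh or cultured, so Flt3-L, culture and time cannot be told apart in a comparison with them. Arrays of a group are called biological replicates without naming animals, and p-values measure the spread between these arrays.

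The cultures were mixed populations that changed with time. From unstimulated cells to 11 days of Flt3-L, all 7 conventional dendritic cell markers and 7 of 8 monocyte and macrophage markers rose. All 9 late neutrophil markers and all 6 B lineage markers fell. Of 4 plasmacytoid dendritic cell markers, 2 rose and 1 fell, with a median log2 change of 0.01. These are calls at a limma adjusted p under 0.05, made for 27.2% of all genes as higher and 24.8% as lower. In such bulk samples, fewer cells of a type and less RNA per cell cannot be told apart. Array medians lay between 114.2 and 124.8 signal units, and for 25 of 27 arrays the best correlated array was one of the same group. The remaining ones were 2 CsA arrays, both replicate number 3, 1 at 12 h and 1 at 24 h, each nearest to replicate 3 without CsA of its own time. The members called with CsA at those times, and the counts stated for lists of other genes, are given with and without them. Changes of single list genes rest on all arrays.

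Immediate early genes are transcribed within minutes of a stimulus from factors already present in the cell, and most of their transcripts decay quickly. Egr proteins are zinc finger factors, Nr4a proteins are orphan nuclear receptors that act without a known natural ligand, and Fos and Jun proteins pair through leucine zippers to form AP-1. In lymphocytes, Egr2, Egr3 and the Nr4a genes are widely known as targets of calcium signalling through calcineurin and NFAT, whereas SRF with its partners and CREB feed MAP kinase and cAMP signals into Fos and Egr1.

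Promoter windows of the 250 bases before the transcription start were held for 8 of the 10 genes, from RefSeq on mouse build GRCm38.p6. TGACG, the core of the CREB/ATF site, was searched on both strands and was found in 7 of the 8 genes, all but Jun, against 17.8% of 32851 windows of the same length. The windows of Nr4a1, Nr4a2 and Nr4a3 each held 4 copies, that of Fos 2 and that of Fosb 1. Those of Fos, Fosb, Nr4a1 and Nr4a3 are shown. Nr4a1 and Nr4a3 moved in opposite directions at 11 days, while Fos and Fosb fell together. Capitals mark TGACG, or CGTCA where it lies on the other strand. The windows are chr12:85473640-85473889 (plus strand) for Fos, chr7:19310046-19310295 (minus strand) for Fosb, chr15:101266596-101266845 (plus strand) for Nr4a1 and chr4:48045055-48045304 (plus strand) for Nr4a3.
Fos: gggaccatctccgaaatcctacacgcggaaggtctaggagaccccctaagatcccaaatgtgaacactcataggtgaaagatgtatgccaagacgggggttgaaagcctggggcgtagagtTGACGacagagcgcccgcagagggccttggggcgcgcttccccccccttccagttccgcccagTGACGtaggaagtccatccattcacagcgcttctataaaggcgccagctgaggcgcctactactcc
Fosb: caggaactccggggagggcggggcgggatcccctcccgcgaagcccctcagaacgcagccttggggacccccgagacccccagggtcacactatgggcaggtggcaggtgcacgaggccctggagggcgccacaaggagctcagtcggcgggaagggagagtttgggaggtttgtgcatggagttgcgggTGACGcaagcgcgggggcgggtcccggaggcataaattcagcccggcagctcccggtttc
Nr4a1: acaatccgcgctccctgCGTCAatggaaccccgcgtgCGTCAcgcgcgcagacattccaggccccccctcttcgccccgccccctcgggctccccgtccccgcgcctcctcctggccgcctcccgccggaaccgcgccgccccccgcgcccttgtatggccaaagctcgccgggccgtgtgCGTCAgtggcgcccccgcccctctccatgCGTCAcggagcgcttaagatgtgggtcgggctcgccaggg
Nr4a3: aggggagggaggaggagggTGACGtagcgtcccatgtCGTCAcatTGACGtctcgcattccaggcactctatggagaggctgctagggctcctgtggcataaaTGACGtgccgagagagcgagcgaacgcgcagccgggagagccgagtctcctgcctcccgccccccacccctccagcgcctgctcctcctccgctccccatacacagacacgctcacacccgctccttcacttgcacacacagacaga
Among the 8 genes, Egr2 alone had a CArG box, the binding motif of SRF, in these 250 bases, against 1.47% of all windows. That share is per window, whereas Egr2 had several windows. Sites further upstream were not searched, and no window of Egr1 or Egr3 was held. The Egr2 window chr10:67537316-67537565 held a separate CArG box, 72 bases before its transcription start, which is not shown. The other windows with a CArG box shared 1 site. The 30 bases around that site, chr10:67537795-67537824 on the plus strand, are shown with the CArG box and the neighbouring CGTCA in capitals.
Egr2: gtCCATATATGGgcagcgaCGTCAcgggta
GCGNGGGCG, the Egr motif, was found in 3 of the 8 genes (Nr4a1, Nr4a2 and Fosb) against 4.70% of windows, and GGAAA, the core bound by NFAT, in 3 (Egr2, Nr4a2 and Jun) against 55.6%. The full CRE TGACGTCA (which contains TGACG), the AP-1 motif TGANTCA and the Nr4a motif AAAGGTCA were found in none of the 8, against 1.55%, 6.75% and 1.34% of windows. Egr2 had 5 overlapping or nearby windows and counts as holding a motif that any of them held.

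The AP-1 genes were far lower after Flt3-L culture than in unstimulated marrow. Signals are given on the deposited linear scale, and changes are log2 differences ± SE from 1 limma model over all 27 arrays. A gene was called at a Benjamini-Hochberg adjusted p under 0.05 over 19935 genes, with 3 arrays per group. Fos, which forms AP-1 only with a partner such as Jun, had signals of 2589, 2542 and 2537 in the 3 unstimulated arrays and 337.6, 392.2 and 324.1 at 12 h. The groups lay far apart, and the 12 h level was 7.30-fold lower (change -2.87 ± 0.09, limma adjusted p = 1.34e-17). Fosb, a Fos paralogue, had 1726, 1629 and 1315 in unstimulated arrays and 125.8, 110.4 and 116.3 at 12 h. That fall, 13.2-fold (-3.72 ± 0.11, limma adjusted p = 5.28e-18), was first in size among the 19935 genes, and that of Fos was sixth in size, rank 6.

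Jun, which can pair with itself or with Fos proteins, had 3562, 3595 and 3668 in unstimulated arrays and 962.9, 888.9 and 895.9 at 12 h, a 3.94-fold fall (-1.98 ± 0.05, rank 25 of the falls). Junb, a weaker transactivator that can oppose Jun, had 929.8, 933.8 and 950.8 and then 425.9, 406.9 and 404.6, a 2.27-fold fall (-1.19 ± 0.06, rank 143). Neither pair of groups overlapped. All 4 AP-1 genes stayed below unstimulated marrow at each later time. At 11 days Fos had 658.3, 664.2 and 635.4 (3.92-fold lower than unstimulated), Fosb 161.8, 174.9 and 137.8 (9.82-fold lower), Jun 1440, 1304 and 1497 (2.56-fold lower) and Junb 575.8, 562.8 and 618.9 (1.60-fold lower).

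The falls thus became smaller late in culture. From 48 h to 11 days with Flt3-L alone, Fos rose 1.44-fold (0.53 ± 0.09), Fosb 1.32-fold (0.40 ± 0.11), Jun 1.17-fold (0.23 ± 0.05) and Junb 1.47-fold (0.55 ± 0.06), each called by limma with adjusted p between 6.23e-09 and 0.00494. Between 12 h and 24 h, Jun alone of the 4 rose (0.32 ± 0.05, limma adjusted p = 8.4e-05). Between 24 h and 48 h none of the 4 was called. With the replicate number as a block, the 48 h rise of Fos (0.22) was called at limma adjusted p = 0.0277. Whether equal numbers mark pairs of arrays was not tested.

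The 3 Egr genes took 3 different courses. Egr1, the prototype of the family, had 723.5, 1054 and 1061 in unstimulated arrays and 284.9, 312.9 and 306.1 at 12 h. It was 3.09-fold lower at 12 h (-1.63 ± 0.12, limma adjusted p = 4.88e-11, rank 46 of the falls), with the first unstimulated array below the other two but above all cultured arrays. By 11 days it had 550.1, 586.4 and 489.5, and the remaining fall was 1.72-fold (-0.79 ± 0.12).

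Egr2, known for its part in myeloid and nerve sheath development, had 184.4, 229.8 and 189.3 in unstimulated arrays and 181.3, 178.3 and 195.7 at 12 h, and these groups overlapped (-0.11 ± 0.10, limma adjusted p = 0.42). Its signals were 252.3, 257.2 and 261.5 at 24 h, 583.2, 571.8 and 584.1 at 48 h and 1899, 2038 and 1831 at 11 days. Every step was called and no 2 successive groups overlapped: Egr2 rose 1.39-fold from 12 h to 24 h, 2.26-fold to 48 h and 3.31-fold to 11 days. Against unstimulated cells it was 9.60-fold higher at 11 days (3.26 ± 0.10, limma adjusted p = 3.43e-19). Among all 19935 genes its rise ranked 29 between 24 h and 48 h and 144 between 48 h and 11 days.

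Egr3, the paralogue that often acts beside Egr2 in lymphocytes, moved little. It had 205.8, 212.7 and 200.0 in unstimulated arrays and 239.7, 224.9 and 240.4 at 12 h, which missed the threshold (0.19 ± 0.09, limma adjusted p = 0.0957) although the groups did not overlap. The same change was called with the replicate block over all arrays (limma adjusted p = 0.0340). It was also called with array weights (0.0446) and with only the 2 groups fitted (0.0243, and 0.0389 with the block). Egr3 was 1.27-fold, 1.31-fold and 1.33-fold higher at 24 h, 48 h and 11 days, and no step between times was called.

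The Nr4a genes also parted. Nr4a1, known as Nur77 and used as a readout of antigen receptor signalling, had 903.4, 792.6 and 701.5 in unstimulated arrays and 348.4, 375.8 and 344.5 at 12 h. It was 2.23-fold lower at 12 h (-1.16 ± 0.07, limma adjusted p = 2.99e-12) and 2.73-fold lower at 11 days, when its signals were 301.4, 311.1 and 263.0. No step between successive times was called for Nr4a1, which with Egr3 was 1 of 2 members without a rise after 48 h.

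Nr4a2 (Nurr1), needed for dopamine neurons, had 205.3, 168.8 and 178.2 in unstimulated arrays, 142.4, 163.5 and 148.8 at 12 h and 202.5, 205.3 and 218.6 at 11 days. It fell 1.21-fold at 12 h (-0.28 ± 0.07, limma adjusted p = 0.00277) and rose 1.54-fold between 48 h and 11 days (0.63 ± 0.07). The 11-day level overlapped the unstimulated one and was 1.14-fold higher (0.19 ± 0.07, limma adjusted p = 0.0293), a call lost without the second unstimulated array (adjusted p = 0.188), without the third array of that group (0.0961) without the third 11-day array (0.119) or with the model fitted to those 2 groups alone (0.0802, and 0.0880 with the replicate block).

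Nr4a3 (Nor1), the third of the family, had 59.6, 58.8 and 62.6 in unstimulated marrow. The gene was dim before 11 days, at percentile 28.2 of all genes in unstimulated marrow, 34.8 at 12 h and 33.7 at 48 h. It had 78.1, 79.3 and 84.6 at 12 h (0.42 ± 0.12, limma adjusted p = 0.00848) and 76.0, 75.9 and 72.0 at 48 h, where its call was missed (adjusted p = 0.0513). At 11 days it had 199.2, 262.4 and 332.2, well apart from all earlier arrays but with a wide spread among the 3. It was 4.29-fold higher than unstimulated (2.10 ± 0.12, limma adjusted p = 7.01e-14) and 3.47-fold higher than at 48 h (1.80 ± 0.12).

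**Figure D1:**
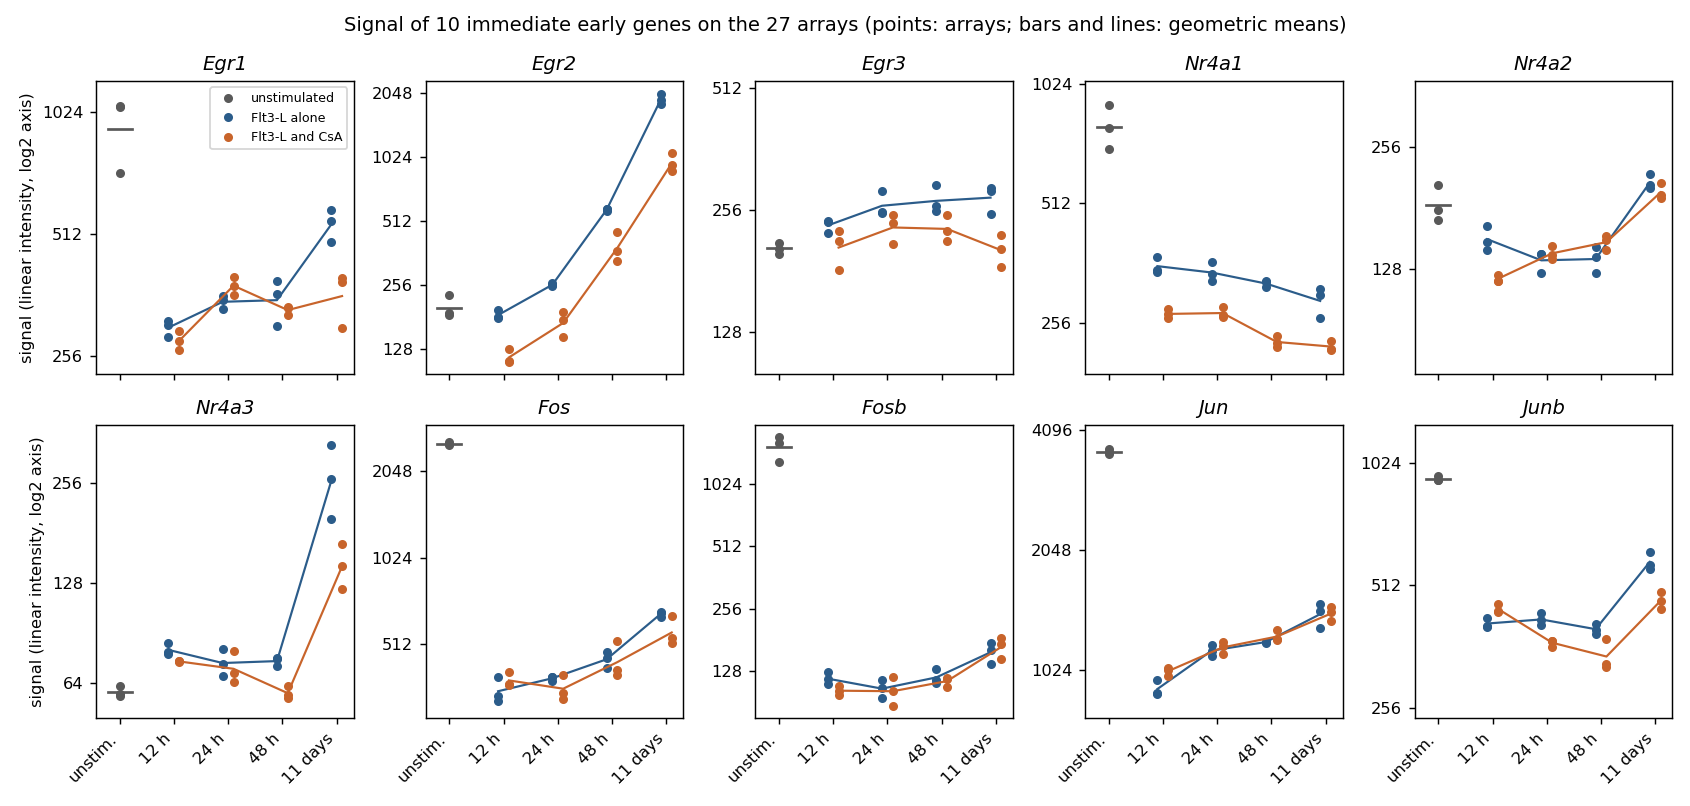
Signal of each gene in every array (points, with the geometric mean of 3 arrays as a line) over the 9 groups, on a log2 axis whose range differs between panels. Fos, Fosb, Jun and Junb are highest in unstimulated marrow, whereas Egr2 and Nr4a3 are highest at 11 days of Flt3-L alone.

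Counted together against unstimulated cells, 8 of the 10 genes were called at 12 h, where 36.0% of all genes were called: 7 were lower (18.1% of all genes) and 1, Nr4a3, was higher (17.8%). At 24 h, 9 were called (35.6% of all genes), 7 lower (17.7%) and 2 higher (17.9%). At 48 h, 9 were called (37.1%), 7 lower (18.6%) and 2 higher (18.5%), the higher ones being Egr2 and Egr3 at both times. At 11 days all 10 were called (51.9%), with 6 lower (24.8%) and 4 higher (27.2%), namely Egr2, Egr3, Nr4a2 and Nr4a3. The arrays did not overlap those of unstimulated cells for 9 members at 12 h (50.0% of all genes), 10 at 24 h (45.9%), 10 at 48 h (44.1%) and 9 at 11 days (56.5%). The median change of the 10 was -1.17, -1.18, -1.27 and -0.73 at the successive times, beside 0.05, 0.04, 0.01 and 0.02 for all genes. These 4 comparisons share the 3 unstimulated arrays.

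Between successive times with Flt3-L alone, 2 members were called from 12 h to 24 h (11.1% of all genes), Egr2 and Jun, both higher (5.59% of all genes). From 24 h to 48 h, 1 was called (17.1%), Egr2, also higher (9.71%). From 48 h to 11 days, 8 were called, all higher, where 43.0% of all genes were called and 24.2% higher. The median change in that last step was 0.54 for the 10 and 0.02 for all genes.

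**Figure D2:**
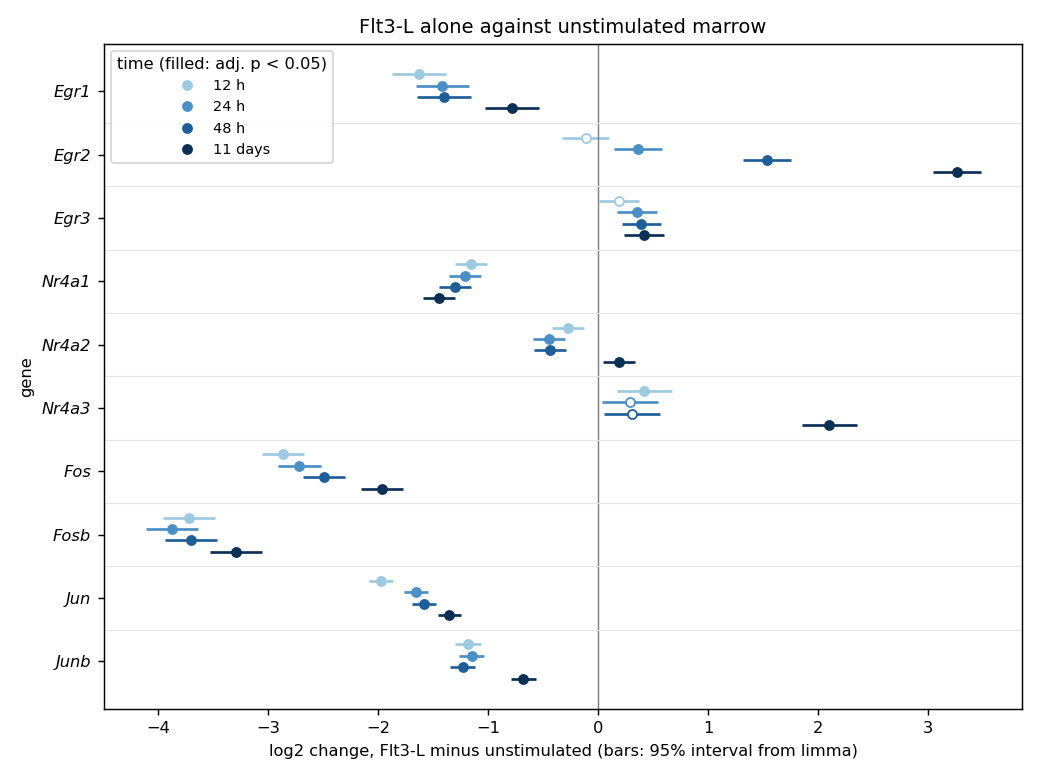
Log2 change of each gene with Flt3-L alone against unstimulated marrow at 4 times, with 95% intervals from limma and filled points for adjusted p under 0.05. Fosb lies lowest at each time and Egr2 moves from -0.11 at 12 h to 3.26 at 11 days.

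Other immediate early genes were also lower after culture. Of 32 further ones, 21 were called lower and 2 higher at 12 h, where 18.1% of all genes were lower and 17.8% higher. At 11 days 20 were lower and 7 higher, beside 24.8% and 27.2% of all genes. The median change of the 32 was -0.37 at 12 h and -0.38 at 11 days. Ptgs2, the inducible cyclooxygenase, fell most at 12 h (-3.19 ± 0.15), followed by Rgs1, a regulator of G protein signalling (-1.71), Cd69, an activation marker of lymphocytes (-1.64), and Ier2 (-1.54). At 11 days Cd69 was at -4.42 and Klf2 at -2.88, while Atf3, a stress-induced partner of Jun, was at 2.41 ± 0.10, from 893.7 to 4659 signal units.

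Among the 16 MAP kinase phosphatases and feedback regulators, 8 fell and 3 rose at 12 h, with a median of -0.12. Of all genes, 18.1% were called lower and 17.8% higher at 12 h. The shares were 17.7% and 17.9% at 24 h and 24.8% and 27.2% at 11 days. Dusp1, an immediate early phosphatase that inactivates MAP kinases, fell from 7023 to 1612 (-2.12 ± 0.07). At 11 days 9 of the 16 rose and 7 fell, Dusp4 (2.18) and Spred1 (2.15) rising most. Of 14 SRF, TCF, MRTF, MEF2 and CREB genes, whose proteins drive immediate early transcription, 5 rose and 1 fell at 12 h, the fall being Srf (-0.32). At 24 h 7 rose and 2 fell, and at 11 days 5 rose and 6 fell. The largest change at 11 days was in Mrtfb, an SRF coactivator (1.83). Of 11 MAP kinase pathway kinases, 1 rose and 2 fell at 12 h.

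The other 14 bZIP partners of Fos and Jun included 6 that rose and 2 that fell at 12 h. At that time 17.8% of all genes were called higher and 18.1% lower. Jund, Fosl1, Fosl2, Atf3 and Maff, which are among these partners, are also counted among the further immediate early genes. Maf, a bZIP factor of macrophages, rose at each time, from 0.68 ± 0.08 at 12 h to 2.55 ± 0.08 at 11 days. Among 13 Egr cofactors and commonly reported Egr targets, 5 rose and 3 fell at 12 h. At 11 days 8 rose and 5 fell, beside 27.2% and 24.8% of all genes. Nab2, a corepressor that binds Egr proteins and is itself induced by them, rose at each time: its change was 0.71 at 12 h, 0.91 at 24 h, 1.12 at 48 h and 2.24 ± 0.08 at 11 days.

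Heat shock genes and markers of other cells moved beside the falls. At 12 h, 18.1% of all genes were called lower and 17.8% higher. Of 11 heat shock genes, 10 fell and 1 rose at 12 h, with a median of -0.99, and the summed signal of the 11 went from 26638 to 27251 in unstimulated arrays to 14573 to 15155 at 12 h. Hspa1a fell most (-3.00), and its near-identical copy Hspa1b was not analysed here. All 5 stromal markers were lower at 12 h (median -1.06, summed signal 1290 to 1522 and then 617.1 to 637.9), whereas 3 of 9 late neutrophil markers were lower with a median of -0.01. At the same time 4 of 5 T and NK cell markers (median -0.84), 3 of 4 erythroid markers (-1.05) and all 5 markers of primary granules and promyelocytes (-0.36) were lower. Of 8 monocyte and macrophage markers 5 were higher and 1 lower, and their summed signal went from 6525 to 6665 in unstimulated arrays to 14057 to 14812. The part of the heat shock genes and of these cell types in the lower signals of the 10 genes was not tested.

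CsA was compared with Flt3-L alone at each of the 4 times. Only lower calls were made. At 12 h, 3 members were lower (Egr2, Nr4a1 and Nr4a2), where 6.73% of all genes were called and 3.91% lower. At 24 h there were 2 (Egr2 and Nr4a1; 3.78% called, 2.19% lower) and at 48 h 3 (Egr2, Nr4a1 and Junb; 4.51% called, 2.35% lower). At 11 days 6 were lower (Egr1, Egr2, Egr3, Nr4a1, Nr4a3 and Junb; 12.0% called, 7.08% lower). The arrays with and without CsA did not overlap for 7 members at 12 h (28.3% of all genes), 5 at 24 h (16.6%), 6 at 48 h (19.1%) and 6 at 11 days (29.8%). Without the third CsA array, the same 3 members were called at 12 h and the same 2 at 24 h. The lowest adjusted p among the others was then 0.0506 at 12 h (Jun) and 0.110 at 24 h (Junb). The median change of the 10 was -0.15, -0.09, -0.15 and -0.35, beside -0.04, -0.01, 0.02 and 0.03 for all genes. The arrays without CsA are the same as in the comparisons with unstimulated cells.

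Egr2 was lower with CsA at every time. At 12 h its signals were 112.1, 127.3 and 111.6 with CsA, all below the 178.3 to 195.7 without it, and the level was 63.1% (95% interval 54.4% to 73.3%) of that with Flt3-L alone. The change was -0.66 ± 0.10 (limma adjusted p = 0.000549), rank 25 of all falls, and -0.63 (adjusted p = 0.00233) without the third CsA array. At 24 h Egr2 had 191.9, 175.5 and 145.3 with CsA, or 66.1% of the level without it (-0.60 ± 0.10, limma adjusted p = 0.000765), and -0.49 (adjusted p = 0.0109) without the third CsA array.

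At 48 h the Egr2 signals with CsA were 457.0, 371.4 and 333.6 (66.2% of the level without it, -0.59 ± 0.10), and at 11 days 938.4, 1072 and 879.5 (49.98%, -1.001 ± 0.104, limma adjusted p = 1.04e-07). No array with CsA reached the lowest array without it at any of the 4 times. Egr2 still increased with time in CsA, from a mean of 117.0 at 12 h to 963.3 at 11 days, which is 4.80 times its unstimulated level, against 9.60 times with Flt3-L alone.

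Egr1 did not follow that course. With CsA it had 295.6, 265.5 and 278.4 at 12 h and 402.3, 362.3 and 382.3 at 24 h, close to the levels without CsA (-0.11 ± 0.12 and 0.13 ± 0.12). At 11 days it had 389.2, 399.1 and 300.6 against 550.1, 586.4 and 489.5, which is 66.6% of the level without CsA (-0.59 ± 0.12, limma adjusted p = 0.000921), with no overlap. Egr3 changed by -0.18, -0.18 and -0.23 at 12 h, 24 h and 48 h, none called, and by -0.43 ± 0.09 at 11 days (limma adjusted p = 0.000907), when its mean signal was 204.5 ± 18.02 (SD, n = 3) with CsA and 275.7 ± 22.4 (SD, n = 3) without, and the groups did not overlap.

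Nr4a1 was the other gene lower at all 4 times. Its signals with CsA were 277.4, 263.3 and 269.5 at 12 h, 267.9, 281.0 and 265.5 at 24 h, 238.2, 223.1 and 227.6 at 48 h and 231.1, 220.9 and 218.7 at 11 days. Each group lay wholly below its partner without CsA, at 75.9%, 79.1%, 71.3% and 76.8% of its level. The changes were -0.40, -0.34, -0.49 and -0.38, each ± 0.07, with limma adjusted p of 0.00197, 0.00534, 9.16e-05 and 0.000418. Without the third CsA array, the 12 h change was -0.40 (adjusted p = 0.00415) and the 24 h change -0.32 (adjusted p = 0.0300).

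Nr4a2 was lower at 12 h only: 119.2, 119.6 and 123.7 with CsA against 142.4, 163.5 and 148.8 without (-0.32 ± 0.07, limma adjusted p = 0.00840). That call held without the third CsA array (adjusted p = 0.00879) and was lost without the second array of Flt3-L alone (0.0519) and with the model fitted to those 2 groups alone (0.0635). At 24 h, 48 h and 11 days its changes were 0.06, 0.14 and -0.08, and its level at 11 days was 94.6% (95% interval 85.5% to 105%) of that without CsA.

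Nr4a3 was lower at 11 days, when it had 167.5, 144.1 and 122.8 with CsA against 199.2, 262.4 and 332.2 without. No CsA array reached the lowest array without it, and the level was 55.5% (95% interval 46.6% to 66.1%) of that with Flt3-L alone (-0.85 ± 0.12, limma adjusted p = 1.32e-05). A fit of only these 2 groups with the replicate block, tried after the data had been seen, ended that call (adjusted p = 0.0610). At 48 h Nr4a3 had 57.8, 59.0 and 62.6 with CsA, wholly below 72.0 to 76.0 without it, but the change missed the threshold (-0.32 ± 0.12, limma adjusted p = 0.171).

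Fos, Fosb and Jun were not called with CsA at any time. The 95% interval of the Fos level with CsA, as a percentage of that without, was 95.5% to 125% at 12 h, 80.5% to 105% at 24 h, 85.6% to 112% at 48 h and 75.3% to 98.3% at 11 days. For Jun the intervals were 103% to 119%, 94.5% to 110%, 95.8% to 111% and 93.2% to 108%. For Fosb they ran from 74.3% to 103% at 12 h and from 90.2% to 125% at 11 days. At 12 h all 3 Jun signals with CsA (1024, 1035 and 987.9) lay above those without, a change of 0.15 ± 0.05 that missed the threshold (limma adjusted p = 0.0785) and was called in 3 alternatives (adjusted p from 0.00754 to 0.0499). The Fos change at 11 days (-0.22 ± 0.09, limma adjusted p = 0.147) was called without the second CsA array (-0.31, adjusted p = 0.0451).

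Junb was the AP-1 gene that fell with CsA at the later times. At 12 h its 3 signals with CsA, 440.6, 461.2 and 443.3, lay above those without, 425.9, 406.9 and 404.6, and the change was not called (0.12 ± 0.06, limma adjusted p = 0.171). It had 322.8, 377.6 and 328.0 with CsA against 410.7, 398.6 and 389.1 without at 48 h (-0.22 ± 0.06, limma adjusted p = 0.0169), and 469.1, 492.3 and 448.2 against 575.8, 562.8 and 618.9 at 11 days (-0.32 ± 0.06, limma adjusted p = 0.000179). The 48 h call was lost without the first (0.0807) or second (0.0519) array of Flt3-L alone, without the first CsA array (0.126) or the third CsA array (0.103), and with the model fitted to those 2 groups alone (0.203). At 24 h the Junb change of -0.19 missed the threshold (limma adjusted p = 0.0557). It was called with the intensity trend (0.0466), quantile normalization again (0.0373), the dimmest genes left out (0.0298) and the replicate block over all arrays (0.0490). Fitted to those 2 groups alone, with or without the block, it was not called.

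**Figure D3:**
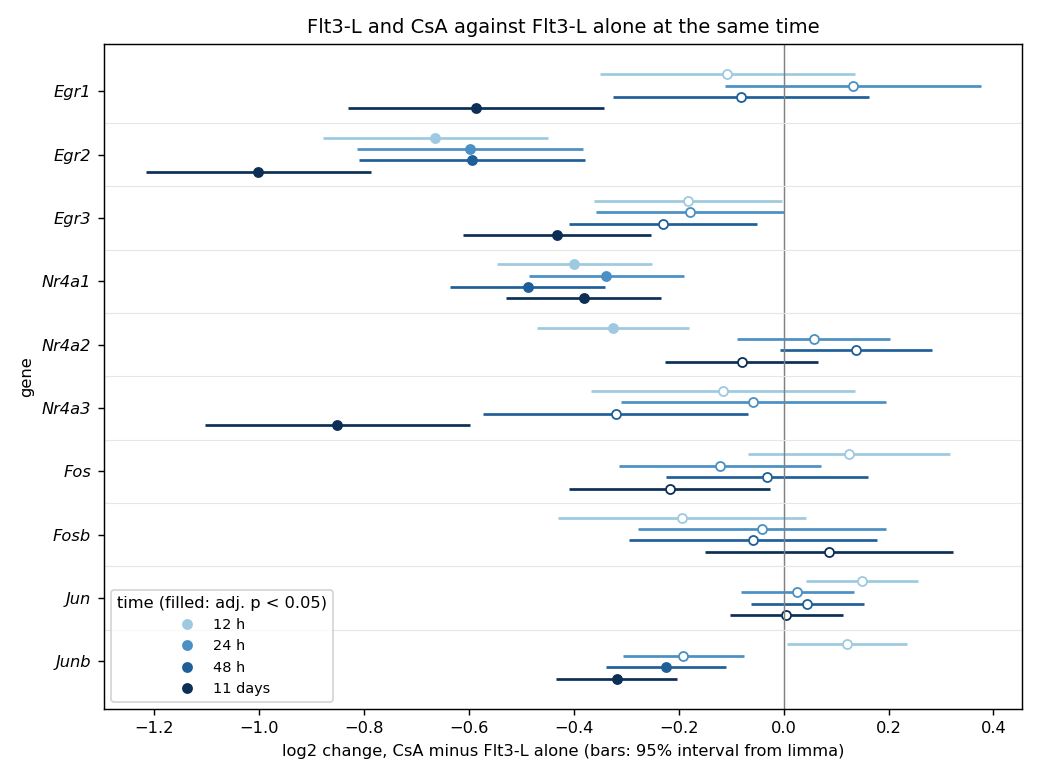
Log2 change of each gene with CsA against Flt3-L alone at the same time, with 95% intervals from limma and filled points for adjusted p under 0.05. Egr2 and Nr4a1 have filled points below 0 at all 4 times, Fos, Fosb and Jun at none.

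Whether the CsA effect at 11 days differed from the mean of the 3 earlier effects was tested directly, and 4 members were called, all more negative at 11 days, where 11.9% of all genes were called and 6.70% were more negative. The differences were -0.69 ± 0.14 for Nr4a3 (limma adjusted p = 0.00141), -0.57 ± 0.14 for Egr1 (0.00616), -0.22 ± 0.06 for Junb (0.0252) and -0.38 ± 0.12 for Egr2 (0.0384). Nr4a3 was dim at the earlier times (percentile 27.5 at 48 h with CsA, 34.8 at 12 h without), where RMA can compress changes. The part of this in its late difference was not tested. For Nr4a1 the difference was 0.03 ± 0.08, with a 95% interval from -0.14 to 0.20. An F test over the 4 times called 4 members (9.82% of all genes): Junb (limma adjusted p = 0.00200), Nr4a3 (0.00867), Nr4a2 (0.0111) and Egr1 (0.0288). The count of 4 late differences was 2 without the third 11-day array of Flt3-L alone, without the first 11-day CsA array or without the third, and each time Egr2 and Junb were lost. Egr2 alone was also lost without the first (adjusted p = 0.0603) or second (0.102) 11-day array of Flt3-L alone, and in 5 cases without an array of an earlier time (0.0515 to 0.0551). The F test of Egr1 was lost without the first (0.0637) or second (0.0854) 11-day array of Flt3-L alone, without the last 11-day CsA array (0.114), or without the first 24 h array of either kind (0.0514 and 0.0507).

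With CsA, 3.91%, 2.19%, 2.35% and 7.08% of all genes were called lower at the 4 successive times. Of the 32 further immediate early genes, 2 rose and 1 fell with CsA at 12 h. Then 6 fell at 24 h, 8 at 48 h and 15 at 11 days, none rising at the last 3 times. Without the third CsA array, 3 rose and 2 fell at 12 h, and 5 fell at 24 h. Without the first 48 h CsA array the 8 became 5, and without the third 11-day array of Flt3-L alone the 15 became 11. The median change was -0.02, -0.10, -0.12 and -0.22 at the successive times. Ptgs2 changed by -0.80 at 24 h, -1.05 at 48 h and -0.71 at 11 days, and Btg2, an antiproliferative gene, by -0.95 at 11 days. Rgs2, a regulator of G protein signalling, fell at 12 h (-0.31), 24 h (-0.53), 48 h (-0.41) and 11 days (-0.39).

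Dusp1 was lower with CsA at 24 h (-0.44 ± 0.07), 48 h (-0.29) and 11 days (-0.31). The Egr corepressor Nab2 fell at 12 h (-0.36 ± 0.08, limma adjusted p = 0.00670) and at 11 days (-0.24 ± 0.08, adjusted p = 0.0365), and had -0.09 at 24 h and -0.03 at 48 h, not called. Among the 13 Egr cofactors and targets, Fn1, which encodes fibronectin, fell with CsA at each time, by 1.05 at 12 h and by 1.96 at 11 days. Of the 14 upstream factors, Mef2c, a calcium-responsive factor, fell at 12 h (-0.30), 24 h (-0.32), 48 h (-0.24) and 11 days (-0.18), and Srf was not among those called.

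**Figure D4:**
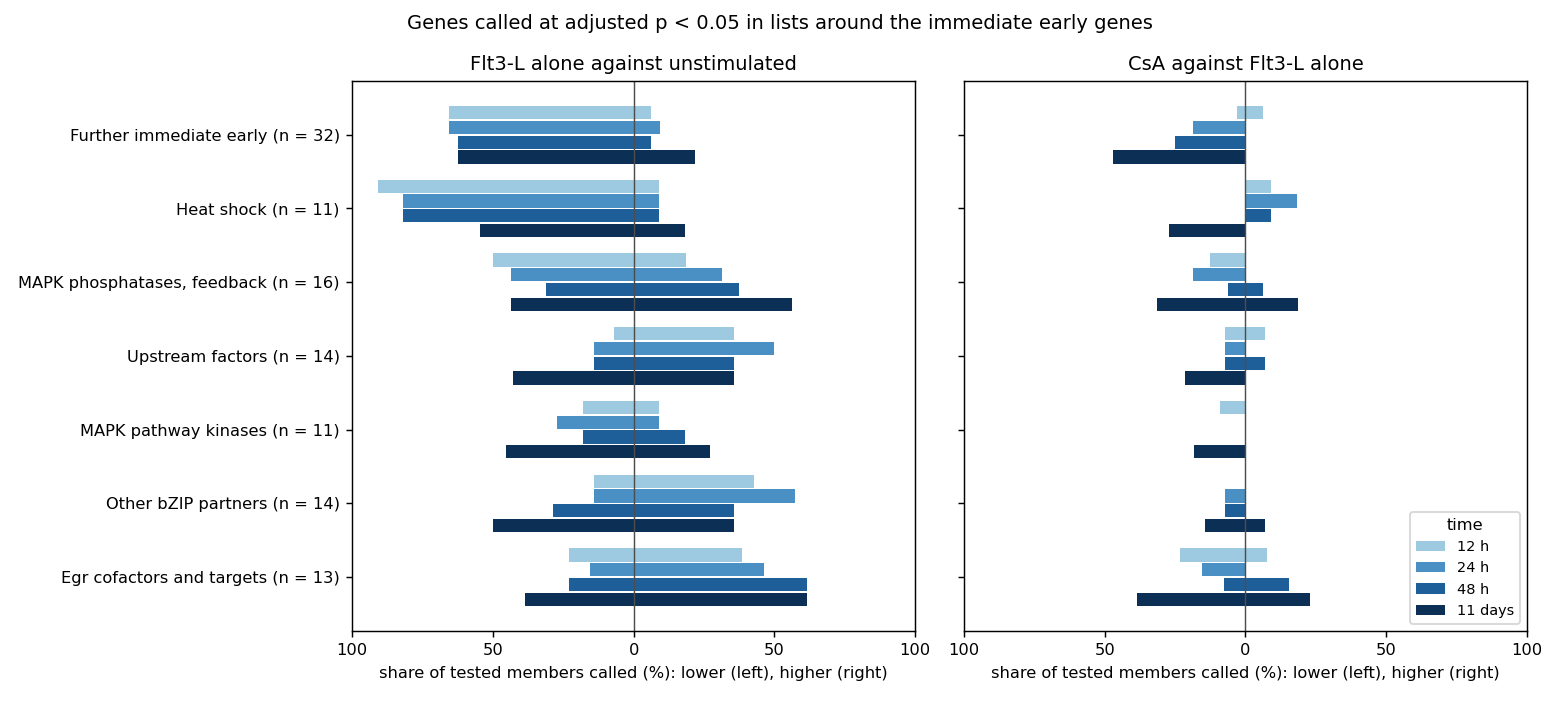
Share of the tested genes of 7 lists called lower (left of 0) or higher (right of 0) in each comparison and time, with the number tested beside each name. Further immediate early genes are called mostly lower against unstimulated cells. Their share called lower with CsA is largest at 11 days (15 of 32, beside 7.08% of all genes).

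Cell type markers also moved with CsA. Among all genes, 3.91% were called lower at 12 h, 2.19% at 24 h, 2.35% at 48 h and 7.08% at 11 days. Of 5 eosinophil, basophil and mast cell markers, 3 were lower at 24 h (median -0.89, also 3 without the third CsA array), 4 at 48 h (-0.59) and 4 at 11 days (-0.80). Their summed signal at 24 h was 3720 to 4103 with CsA and 6892 to 7528 without, and at 48 h 2298 to 2638 and 3424 to 3908. At 12 h 1 of the 5 was lower (-0.14), also 1 without the third CsA array. At 11 days, 6 of 7 conventional dendritic cell markers were lower (median -0.89), and their summed signal was 3518 to 4490 with CsA and 7550 to 7932 without. Late neutrophil markers were lower in 8 of 9 cases (summed signal 1666 to 2315 and 4099 to 4459) and B lineage markers in 5 of 6 (448.1 to 475.4 and 1563 to 2045). T and NK cell markers were lower in 4 of 5 cases (median -0.80). Of 4 plasmacytoid dendritic cell markers, 2 were lower and 1 higher at 11 days (median -0.23). Of 8 monocyte and macrophage markers 1 was lower, with a median of 0.07. Before 11 days, 1 of 7 conventional dendritic cell markers was called lower at 24 h (none without the third CsA array) and 1 at 48 h. None of them was lower at 12 h, with or without the third CsA array. Monocyte and macrophage markers were lower in 2 of 8 cases at 12 h, also 2 without that array. B lineage markers were lower in 4 of 6 cases at 48 h. The part of these markers in the lower Egr, Nr4a and Junb signals was not tested.

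Across all 9 groups, the highest mean of Egr1, Nr4a1, Fos, Fosb, Jun and Junb was in unstimulated marrow and that of Egr2, Egr3, Nr4a2 and Nr4a3 at 11 days of Flt3-L alone. Egr2 spanned most, 16.4-fold between its lowest group mean (CsA at 12 h) and its highest, followed by Fosb at 15.2-fold, and Egr3 spanned least, 1.35-fold. When the groups were put in order of their mean, neighbouring groups of Egr2 overlapped in 2 cases (24 h with CsA beside 12 h without, and 12 h without CsA beside unstimulated). For Egr3 they overlapped in 7 cases, for Fosb and Nr4a2 in 6, for Egr1 and Fos in 5, for Nr4a1, Nr4a3 and Junb in 4 and for Jun in 3.

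Correlations over the 27 arrays describe which genes shared these courses. They rest on 9 groups and carry no test. Fos correlated with Fosb at 0.97, with Jun at 0.97 and with Junb at 0.93, and Egr1 with Fos at 0.91. Egr2 correlated with Nr4a3 at 0.79 but with Fos at 0.10 and with Nr4a1 at -0.30. Among 3720 other genes whose group means spanned at least 1 log2 unit, those most like Egr2 were Slamf8 (0.98), Trf, which encodes transferrin (0.98), and Rtn1 (0.97), and those most like Nr4a3 were Il12b, which encodes the p40 subunit of interleukins (0.97), Cacna1d (0.97) and Arhgap28 (0.96). Nr4a1 was most like Zfp36, which encodes an RNA-destabilising protein (0.95), Ptgs2 (0.95) and Pml (0.94). Egr1 was most like Hsph1 (0.93), Hspb1 (0.92) and Aqp11 (0.92). Dusp1 was among the 3 nearest to both Fos and Fosb (0.97 each), with Minpp1 and Ttll12 for Fos and Sh2d4a and Chaf1b for Fosb. For Jun they were Minpp1, Mthfd1 and Zmpste24 (0.96 each) and for Junb C1qtnf12 (0.96), Endod1 (0.96) and Suox (0.95). Nr4a2 was nearest to Ttll1 (0.90), Nenf (0.89) and Paqr4 (0.89), and Egr3 reached no more than 0.76, with Ap1s3, then Penk (0.75) and Kmo (0.73).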

How the data were processed

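RNA of 27 samples was hybridised to Affymetrix arrays of 1 colour. The authors deposited 1 intensity per probe set and array, made by the RMA method (version not stated), per the submitters' processing notes. RMA removes background, quantile normalizes arrays and can compress the changes of dim probe sets. Since the values reach from 5.2 up to 18180.7, they are linear, and their log2 was used for every test. The genome build of the probe annotation is not given in the sources used here. Of 28815 probe sets, 21780 listed 1 gene symbol, 1605 several and 5430 none. Those with several were left out, and the brightest probe set over the 27 arrays stood for a gene, which gave 19935 genes.

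A model with 1 mean per group was fitted over all 27 arrays (R 4.3.3 with limma 3.58.1: lmFit, contrasts.fit, eBayes), with Benjamini-Hochberg adjustment over all genes of each comparison. The script was tested on simulated data. Errors after ± are SE unless named SD, and precision is limited by how few arrays a group holds. Ranks order the log2 changes of all genes. Plots were drawn with matplotlib 3.10.9 and tables made with numpy 2.4.6 and pandas 2.3.3 (Python 3.11.15).

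The members, the gene lists and the marker lists were chosen with earlier results of these data known, so their directions are no independent evidence. The 10 genes are always named. From a list, up to 4 called genes with the largest change in a comparison are named, or a gene whose role is described, and for each of the 10 genes the 3 with the highest correlation, leaving out predicted genes, numbered clones, small RNAs, olfactory and vomeronasal receptors and segments of immunoglobulin or T cell receptor genes. Summed marker signals add the probe set signals of a list. Lists count only genes with a probe set of their own, and the rest were not analysed here. The lists share some genes. Jund, Fosl1, Fosl2, Atf3 and Maff stand among both the further immediate early genes and the bZIP partners. Srf stands among both the further immediate early genes and the upstream factors.

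The labels give replicate numbers but no pairing. Deviations of same-numbered arrays from their group means all correlated above 0.1 across genes for unstimulated with Flt3-L at 12 h and 24 h, for Flt3-L at 24 h with 48 h, and for CsA with Flt3-L alone at 24 h (0.369, 0.346 and 0.398) and 48 h (0.539, 0.178 and 0.192). They did not in the other comparisons, such as CsA at 12 h (0.190, 0.188 and 0.098) and 11 days (0.010, 0.108 and -0.039). Arrays of different numbers were not correlated in this way, so whether equal numbers mark pairs was not tested. Alternatives were an intensity trend in the variance, array weights, quantile normalization again, subtraction of array medians, leaving out the dimmest genes, probe sets of a gene averaged, only the groups compared, a replicate block, and each array left out.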

Additional observations from a re-analysis of the deposited data

Results flagged for a closer look

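Tests of the difference between times called the CsA effect of some of the 10 genes. Relative to the average of the 12 h, 24 h and 48 h effects, the 11-day effect of CsA differed by -0.57 for Egr1, -0.38 for Egr2, -0.69 for Nr4a3 and -0.22 for Junb, 4 genes called by limma where 11.9% of all genes were. The F test over the 4 times gave adjusted p = 0.0288 for Egr1, 0.0111 for Nr4a2, 0.00867 for Nr4a3 and 0.00200 for Junb, with 9.82% of all genes called. Egr2 was not called by the F test (adjusted p = 0.158), and its late difference was lost in 12 alternatives. For Nr4a2 the CsA change was -0.32 at 12 h, 0.06 at 24 h, 0.14 at 48 h and -0.08 at 11 days. Nr4a3 was dim before 11 days, where RMA can compress changes.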

How the results depend on the processing

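Under the alternatives run, 2234 of 2300 values of single genes kept their side of the threshold, 38 were no longer called and 28 were newly called. No called value changed sign. Among the 2234, 26 uncalled values did. Egr2 and Nr4a1 were called lower with CsA at all 4 times in every alternative, with adjusted p of at most 0.0478. With quantile normalization again, the late difference was called for 2 members in place of 4, and so was the F test, for 2 in place of 4. With single arrays left out, the late difference was called for 2 to 4 members. With the replicate block, the count from 24 h to 48 h was 2 in place of 1 (Fos gained), and also 2 with the block in a fit of only these groups, an alternative chosen after seeing the data. For single genes, the late difference of Egr2 was lost in 12 alternatives (adjusted p up to 0.143), and the F test of Egr1 in 6 (up to 0.114). The block over all groups also gave a new call of Fos with CsA at 11 days (0.0388). The block, fitted to the compared groups alone, gave new calls of Egr1 from 12 h to 24 h (0.0488) and of the late difference of Egr3 (0.0499). Fitted without the other groups, Nr4a3 was newly called with CsA at 48 h (0.0298) and with Flt3-L at 24 h (0.0110) and 48 h (0.00247).

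The number of all genes called with CsA depended more on the fit. At 12 h it was 1341, with 5301 under array weights, 2111 under the replicate block, 177 with only the groups compared and 213 with both. It ran from 332 to 3221 with single arrays left out, the highest without the third CsA array. At 24 h 754 became 396 and at 48 h 900 became 451 with only the groups compared. Without the first Flt3-L array at 24 h there were 475, and without the first CsA array at 48 h 586. At 11 days 2391 became 1445 with the block and only the groups compared, and the F test's 1957 became 3825 under array weights. The cause was not tested.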
